A study of Mus musculus with 7 samples.

Results

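The insulin-like growth factor system was described in mouse testis and Sertoli cells through 9 genes: the ligand gene Igf1, the receptor genes Igf1r and Insr, and the 6 binding protein genes Igfbp2 to Igfbp7. Its members were all probe sets annotated to exactly 1 of these symbols. They numbered 39, of which 27 were among the 34945 single-gene probe sets of the Sertoli and TM4 arrays and 12 among the 10833 of the testis arrays. The 9 genes were among 18336 named on the arrays in all. Expression had been measured on 7 Affymetrix arrays, 1 for each group. Primary Sertoli cells came from ERM knockout mice at 4 weeks, from ERM knockout mice at 10 weeks and from wild-type mice at 4 weeks. The TM4 line was studied with and without transfection of ERM, and whole testis was taken from knockout and wild-type mice at 4 weeks. Germ cells in the seminiferous tubule are supported by Sertoli cells, from which the mouse line TM4 was once established. ERM is the ETS family transcription factor encoded by Etv5. The study concerned the loss of germline stem cells without it. Neither the knockout allele, the strain, the number of animals per array nor the transfected construct is stated in the labels.

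Insulin-like growth factors are secreted peptides that act through the tyrosine kinase receptors encoded by Igf1r and Insr. Most of the peptide outside cells is held by binding proteins, which carry it, keep it from the receptor or release it when proteases cut them. In the testis, Sertoli, Leydig and peritubular cells make components of this system. Mice that lack both receptors in Sertoli cells have fewer Sertoli cells and small testes.

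Intensities were scaled so that the trimmed mean of every array was 500, and a scaled intensity of 100 was taken as the floor. All levels below are scaled intensities, and each probe set was compared only with itself on other arrays. With 1 array per group there was no replicate and no test across samples, so a difference was called only by size, at 2-fold. The only error estimate was the standard deviation of log2 ratios among bright probe sets of the same gene on the same pair of arrays. It was 0.20 for 4-week knockout over wild-type Sertoli cells, 0.18 for 10-week knockout over wild type, 0.25 between the knockout ages, 0.15 in TM4 and 0.25 in testis. That spread covers probe sets at 500 or above on both arrays, and not dimmer ones, animals or cultures. None of the 3 Etv5 probe sets was lower on an array labelled knockout, with ratios to wild type of 1.05 to 1.28 at 4 weeks and 1.23 to 1.56 at 10 weeks. These ratios do not settle the labels, since the deleted part of the gene is not known here, and directions are those between arrays as labelled. The 4-week knockout array also carried an 18S ribosomal RNA control signal of 4551, against 352 on the 10-week knockout array and 349 on the wild-type array. The part of this in values that stood apart on that array alone was not tested. Of 14 Sertoli cell markers with a probe set, all reached the floor on the 4-week knockout and wild-type arrays, and Espn lay below it on the 10-week knockout array. The TM4 arrays departed from this pattern. Their summed Sertoli marker signal was 7778 with and 7933 without ERM, against 45120 in wild-type Sertoli cells, and Wt1 was below the floor on both. Of the 14 markers, 9 were at least 2-fold higher in wild-type Sertoli cells than in untransfected TM4 and 4 at least 2-fold lower. Among all genes these shares were 17.8% and 16.1%. Inhbb was among the 4, at 318 in wild-type Sertoli cells against 3833 in untransfected TM4.

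In the Sertoli cells, the clearest differences lay in the binding proteins. Igfbp4, whose product holds growth factor away from the receptor and is cut by the protease PAPP-A, was at least 2-fold lower on 3 of 6 probe sets at 4 weeks and on 4 of 6 at 10 weeks. Some of these ratios are bounds, and its brightest probe set was level with wild type at both ages. Igfbp3, which encodes the main carrier in blood, was higher on both of its probe sets at both ages. Igfbp7, whose product binds the growth factors only weakly, was 2.07-fold lower at 4 weeks on its brightest probe set and within 1.07-fold of wild type at 10 weeks. Of its other probe sets, 1423585_at was also lower at 4 weeks and 1437804_at higher, neither called 2-fold apart. The receptor genes stayed within 2-fold on every probe set at or above the floor.

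At 4 weeks, 25 of the 27 member probe sets reached the floor on at least 1 array of the pair. None was at least 2-fold higher in knockout and 4 were at least 2-fold lower. Over all 28381 probe sets with a ratio, 0.62% were at least 2-fold higher and 2.8% lower. Of the 4 lower probe sets, 3 belonged to Igfbp4 and the other to Igfbp7. With the floor at 200, 2 were lower at 4 weeks and 1 at 10 weeks. The members' median log2 ratio was -0.29, beside -0.01 over all probe sets, with 16 members below 0 and 9 above. That median was -0.09 with the floor at 200 and 0.03 without suffixed probe sets, so its sign depends on the suffixed probe sets. At 10 weeks 1 of 25 was at least 2-fold higher and 4 were at least 2-fold lower. Over all 28532 probe sets, 1.73% were higher and 3.53% lower. All 4 lower ones were Igfbp4 and the higher one was Igfbp3. The median was 0.03, beside -0.02 over all, and 0.21 without suffixed probe sets. The 10-week and 4-week comparisons share the wild-type array, and in the 10-week comparison age and genotype differ together and cannot be told apart.

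**Figure D1:**
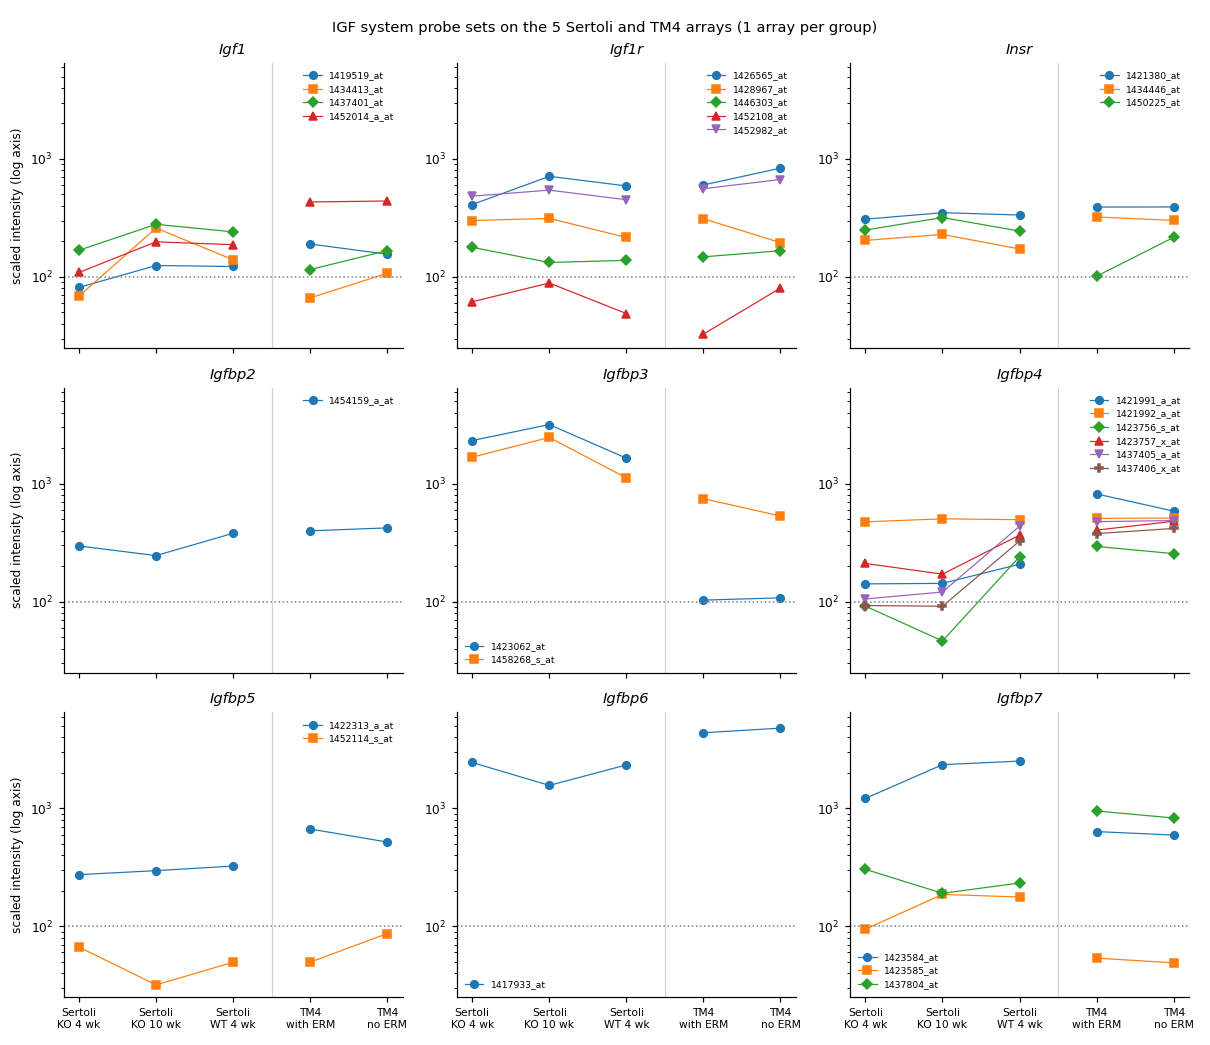
Scaled intensity (log axis) of each member probe set on the 3 primary Sertoli arrays and the 2 TM4 arrays, 1 array per group. Points are single arrays, lines join arrays of one cell source to guide the eye, and the dotted line is the floor of 100; for Igfbp4, 5 of 6 probe sets are lower on both knockout arrays than in wild type, and both Igfbp3 probe sets are higher.

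On each of the 4 Igfbp4 probe sets that were lower, both knockout arrays lay below wild type, while the order of the knockout ages varied. Probe set 1437405_a_at read 105 in knockout at 4 weeks and 121 in knockout at 10 weeks, against 436 in wild type, which is 4.14-fold and 3.61-fold lower. Probe set 1437406_x_at read 92.7 and 91.4 in knockout at 4 and 10 weeks, against 326 in wild type, at least 3.26-fold lower at both ages. For 1423756_s_at the signals were 91.6 and 46.4 in knockout at 4 and 10 weeks, against 241 in wild type, at least 2.41-fold lower at both ages. Probe set 1423757_x_at, with 211 and 171 in knockout at 4 and 10 weeks against 366 in wild type, was 1.74-fold and 2.14-fold lower. On these 4 probe sets the TM4 arrays read 255 to 487, close to the wild-type Sertoli array and above both knockout arrays. The remaining Igfbp4 probe sets stayed within 2-fold. Probe set 1421991_a_at was also lower on both knockout arrays, at 141 and 143 at 4 and 10 weeks, against 208 in wild type. The brightest, 1421992_a_at, was level on all arrays, at 475 and 503 in knockout, 495 in wild type, and 508 and 511 in TM4 with and without ERM. All 6 carry suffixes that mark probe sets shared between transcripts or open to cross-hybridisation. Which transcripts each detects is not given in the files.

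Igfbp3 probe set 1423062_at read 2320 in knockout at 4 weeks and 3171 in knockout at 10 weeks, against 1645 in wild type. Its log2 ratios of 0.50 and 0.95 lay beyond the probe set standard deviations of 0.20 and 0.18 but within 2-fold. Probe set 1458268_s_at gave 1675 and 2465 in knockout at 4 and 10 weeks, against 1118 in wild type, with log2 ratios of 0.58 and 1.14. The order was therefore the same on both probe sets, with the 10-week knockout highest and wild type lowest. Between the knockout ages the steps were 1.37-fold and 1.47-fold.

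Since ERM binds DNA at a GGAA core, the stretches upstream of these 2 genes that differed in opposite directions are shown. Each is the 250 bases before the transcription start in RefSeq, build GRCm38.p6, read 5′ to 3′ on the strand of the gene. Igfbp3 is at chr11:7213924-7214173 on the minus strand and Igfbp4 at chr11:99040994-99041243 on the plus strand. Capitals mark every match, on either strand, to AGGAAG (the core of the PEA3 element), CCGGAA (another ETS site) or TATAAA (the TATA box).
Igfbp3: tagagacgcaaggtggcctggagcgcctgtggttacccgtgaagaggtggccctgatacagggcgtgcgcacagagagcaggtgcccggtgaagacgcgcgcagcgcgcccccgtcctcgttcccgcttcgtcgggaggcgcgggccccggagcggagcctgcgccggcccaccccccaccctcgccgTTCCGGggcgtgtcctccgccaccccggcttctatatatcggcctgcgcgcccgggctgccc
Igfbp4: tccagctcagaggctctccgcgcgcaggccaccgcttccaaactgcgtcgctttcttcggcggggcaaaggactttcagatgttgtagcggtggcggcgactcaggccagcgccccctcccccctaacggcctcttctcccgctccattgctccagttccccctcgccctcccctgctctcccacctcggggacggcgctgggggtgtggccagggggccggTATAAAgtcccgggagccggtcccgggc
Igfbp3 held 1 match to CCGGAA, in reverse, and Igfbp4 held 1 to TATAAA and none to AGGAAG or CCGGAA. Both windows also hold the bare GGAA core in reverse, as TTCC, which is not capitalised unless it lies in a longer match. Of 32851 such windows in the table, 12.0% hold CCGGAA, 29.5% AGGAAG and 12.4% TATAAA. The first 2 motifs differ in the base before GGAA, so they cannot cover the same core. The table matched 8 of the 9 members with 9 windows. AGGAAG was found in windows of Igf1, Igfbp2 and Igfbp6, CCGGAA only in that of Igfbp3. Windows with AGGAAG or CCGGAA thus numbered 4 of 9, beside 38.2% of all windows.

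Igfbp7 differed between the 4-week and the 10-week knockout array. Probe set 1423584_at read 1215 in knockout at 4 weeks and 2346 in knockout at 10 weeks, against 2517 in wild type. The dimmer 1423585_at had the same order at 94.6 and 186 in knockout against 177 in wild type, at least 1.77-fold lower at 4 weeks. On both, only the 4-week knockout array stood low. Probe set 1437804_at went the other way, at 304 and 191 in knockout at 4 and 10 weeks against 233 in wild type, all within 2-fold.

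The remaining binding proteins stayed within 2-fold. Igfbp6, whose product prefers IGF2 to IGF1, had 2448 in knockout at 4 weeks and 1565 in knockout at 10 weeks, against 2334 in wild type. The 10-week array was thus the low one, by 0.58 on the log2 scale, and the 4-week array lay within the probe set standard deviation of wild type. Igfbp2 read 296 and 246 in knockout at 4 and 10 weeks, against 380 in wild type, with log2 ratios of -0.36 and -0.63. Igfbp5, its neighbour on mouse chromosome 1, read 274 and 296 in knockout, against 324 in wild type, log2 ratios of -0.24 and -0.13. The other Igfbp5 probe set was below the floor on all 5 arrays.

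**Figure D2:**
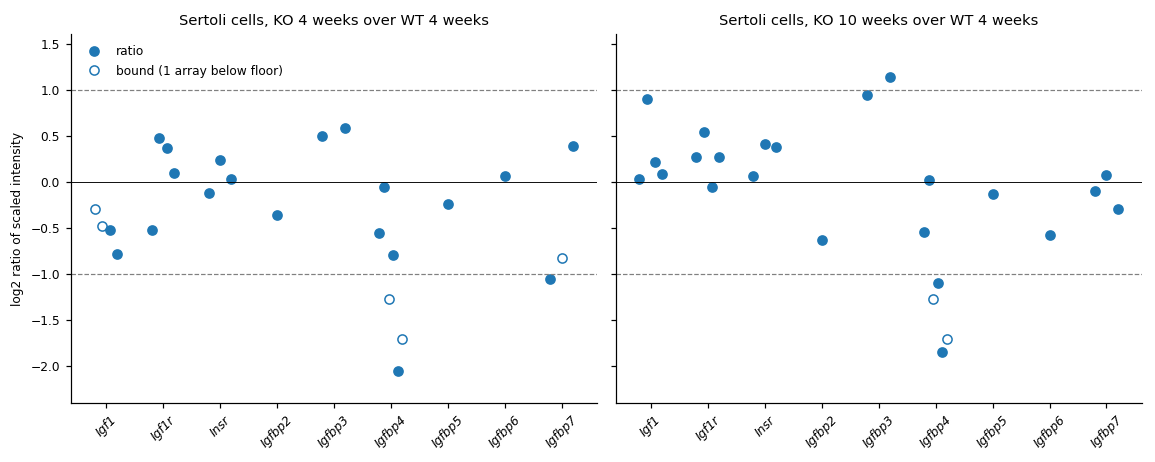
Log2 ratios of scaled intensity for knockout over wild-type Sertoli cells, at 4 weeks (left) and 10 weeks (right), both against the wild-type array at 4 weeks. Each point is a probe set, open points are bounds with 1 array below the floor, and dashed lines mark 2-fold; Igfbp4 holds the lowest points in both panels, at -2.05 and -1.85.

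Igf1, the ligand gene, was dim on all 4 probe sets in Sertoli cells and lowest on the 4-week knockout array on each. Its brightest probe set, 1452014_a_at, read 109 in knockout at 4 weeks and 198 in knockout at 10 weeks, against 188 in wild type, a log2 ratio of -0.78 at 4 weeks and 0.08 at 10 weeks. Probe set 1437401_at gave 168 and 279 in knockout at 4 and 10 weeks, against 241 in wild type. The other 2 lay below the floor in knockout at 4 weeks. Of these, 1434413_at read 68.6 in knockout at 4 weeks and 260 in knockout at 10 weeks, against 140 in wild type. It was the 1 member at least 2-fold higher at 10 than at 4 weeks in knockout, at least 2.60-fold, a call lost with the floor at 200. No Igf1 probe set was called 2-fold apart from wild type at either age, but for the 2 below the floor at 4 weeks the ratios are bounds, at least 1.23-fold and 1.40-fold lower.

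Igf1r, the receptor with the higher affinity for IGF1, had 5 probe sets. The brightest, 1426565_at, read 411 in knockout at 4 weeks and 712 in knockout at 10 weeks, against 591 in wild type. Its log2 ratio of -0.52 at 4 weeks was not shared by 1452982_at, at 484 and 544 in knockout against 451 in wild type, or by 1428967_at, at 301 and 314 against 216. The dim probe set 1446303_at ranged from 133 to 178, and 1452108_at lay below the floor on all 5 arrays. At 4 weeks the 4 ratios thus had both signs. Insr, the insulin receptor gene, had log2 ratios of -0.12 to 0.24 at 4 weeks and 0.06 to 0.41 at 10 weeks over its 3 probe sets. Its brightest read 309 and 350 in knockout at 4 and 10 weeks, against 335 in wild type.

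Between knockout Sertoli cells at 10 and 4 weeks, 23 member probe sets had a ratio. The Igf1 probe set 1434413_at was the only 1 at least 2-fold higher and none was at least 2-fold lower, beside 4% and 2.88% of 28403 probe sets. The median was 0.18, beside -0.02 over all. Igfbp7 on 1423584_at stood at 1.93-fold higher, and Igf1r on 1426565_at at 1.73-fold higher. Igfbp6 was 1.56-fold lower.

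Markers of other cell types also differed between the Sertoli preparations. Among all genes, 0.681% were at least 2-fold higher than wild type and 3.18% lower at 4 weeks, and 1.62% and 4.22% at 10 weeks. The 8 fibroblast markers summed to 6462 in knockout at 4 weeks and 10682 in knockout at 10 weeks, against 11486 in wild type, a sum carried by Dcn and Pdgfra, which had 3027 and 1567 in knockout at 4 weeks and 6122 and 2972 in knockout at 10 weeks, against 6207 and 2740 in wild type. Between the knockout ages the other 4 with a ratio were below 0, and the list's median was -0.17, so most of the list did not have the order of Igfbp7. Against wild type, 2 of 6 were at least 2-fold lower at 4 weeks and 1 at 10 weeks, and Lum and Thy1 were below the floor on all 3 arrays. The 13 macrophage markers summed to 5616 and 9338 in knockout at 4 and 10 weeks, against 13566 in wild type, a sum in the order of Igfbp7 and, as with the 4 Igfbp4 probe sets, lower at both ages. Of the 11 with a ratio 5 and 4 were at least 2-fold lower, and Itgam and Ptprc were below the floor on all 3 arrays. Leydig markers followed the order of Igfbp3, with sums of 4181 and 6680 in knockout at 4 and 10 weeks, against 2825 in wild type, and 1 and 3 of 6 at least 2-fold higher. The 7 peritubular and smooth muscle markers had sums in the same order, at 13209 and 15686 in knockout against 9153 in wild type. Most of each sum was Acta2, at 7409 and 10026 in knockout at 4 and 10 weeks, against 5799 in wild type. At both ages 5 of the 7 were above 0 and 2 below, with 1 at least 2-fold higher at 4 weeks and 0 at 10 weeks. Germ cell markers summed to 27873 in knockout at 4 weeks and 5980 in knockout at 10 weeks, against 32136 in wild type. At 4 weeks 9 of the 14 were below 0, with a median of -0.25, and 1 was at least 2-fold lower and 1 higher. At 10 weeks 12 were below 0, with a median of -1.89, and 10 were at least 2-fold lower. Sertoli markers summed to 53152 and 50032 in knockout at 4 and 10 weeks, against 45120 in wild type, with 2 of 14 and none at least 2-fold higher. The part of these cells in the values of the IGF system was not tested. In such bulk samples fewer cells of a type and less RNA per cell cannot be told apart.

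**Figure D3:**
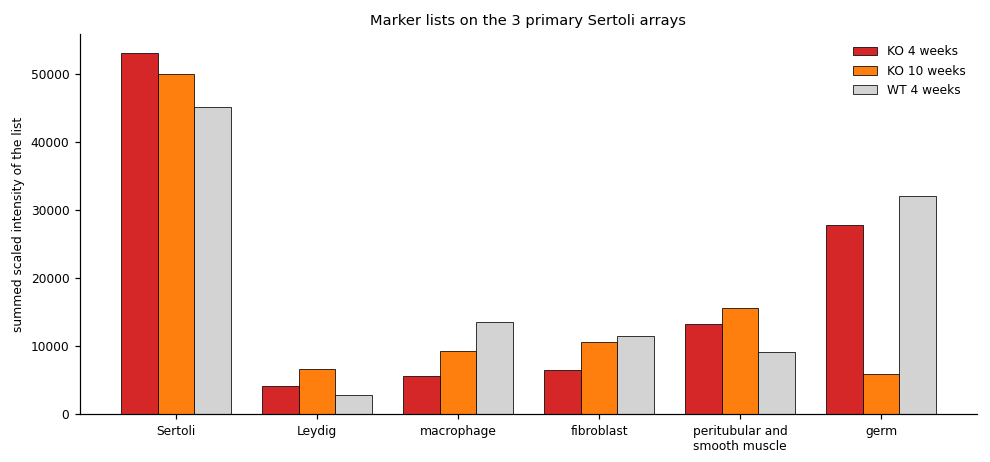
Summed scaled intensity of the marker lists on the knockout Sertoli arrays at 4 and 10 weeks and the wild-type array at 4 weeks, 1 array per bar, each gene by its brightest probe set. Leydig and peritubular sums are highest in knockout at 10 weeks, macrophage and fibroblast sums are highest in wild type, and the germ cell sum is lowest in knockout at 10 weeks.

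The wider pathway was described by 4 lists, each gene through its brightest probe set. Among genes of the arrays, 0.681% were at least 2-fold higher and 3.18% lower at 4 weeks, and 1.62% and 4.22% at 10 weeks. Of 14 genes for other ligands and modulators with a ratio, 3 were lower at 4 weeks and none higher, with a median of -0.30 beside -0.02 over all genes. The brightest was Ccn2, a matrix protein with a domain like that of the binding proteins, which was 3.53-fold lower at 856 in knockout against 3020 in wild type. The other 2 were Htra3 and Ccn4, both dimmer than the trimmed mean. At 10 weeks this list had 1 higher gene and none lower, with a median of 0.27. That gene was Pappa, which encodes the protease that cuts the Igfbp4 product. It read 665 in knockout at 10 weeks, against 240 in wild type, a 2.77-fold difference on 1432591_at. The 4-week knockout read 216 on it, close to wild type. A further Pappa probe set had a log2 ratio of 0.76 at 10 weeks, and another was below the floor on both arrays.

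Of the other receptors and adaptors, 2 of 13 were lower at 4 weeks. Irs4, an adaptor of both receptors, was 2.71-fold lower at 431 in knockout against 1167 in wild type, and 1118 at 10 weeks. The other was Insrr, the insulin receptor-related gene, at 104 in knockout, close to the floor, against 345 in wild type. At 10 weeks 1 of 14 was higher, the docking protein gene Gab1 at 1490 in knockout against 732 in wild type. None of 22 genes of the PI3K, AKT, mTOR and FOXO list was called 2-fold apart at 4 weeks. At 10 weeks 1 of them was higher, the dim Trib3. In the growth hormone list none of 8 was called 2-fold apart at 4 weeks, and 1 was lower at 10 weeks. This was Stat5a, which carries growth hormone signals to the nucleus, at 143 in knockout at 10 weeks against 562 in wild type on 1421469_a_at. On its other probe set the log2 ratio was -0.20.

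Between the knockout ages, 5 of 14 modulators were at least 2-fold higher at 10 weeks and none lower, beside 4.19% higher and 3.51% lower among all genes. Ccn2 was 4.62-fold higher, Pappa 3.08-fold, Ccn1 2.62-fold and Htra1, a protease that can cut binding proteins, 2.22-fold, while Ccn3 was the fifth, by a bound. The list median was 0.75, beside -0.03 over all genes. Set against wild type, Ccn2 and Htra1 had log2 ratios of -1.82 and -0.77 at 4 weeks and of 0.39 and 0.38 at 10 weeks. Of 14 receptors and adaptors 2 were higher, Insrr at 3.58-fold and Irs4 at 2.59-fold, and 1, Sh2b1, was lower. Insrr read 373 at 10 weeks against 104 at 4 weeks, the latter close to the floor. The PI3K to FOXO list had 1 higher gene of 22, Trib3, at 2.34-fold. In the growth hormone list Ghr, the growth hormone receptor gene, stood at 1281 at 10 weeks against 550 at 4 weeks on its brightest probe set, a 2.33-fold difference, while its other probe sets gave 0.31 and 0.03 on the log2 scale. Stat5a was 3.39-fold lower on 1421469_a_at, while its other probe set at 10 weeks had stayed within 2-fold of wild type.

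In whole testis, none of the 12 member probe sets was called 2-fold apart between knockout and wild type, beside 0.602% higher and 0.817% lower of 9297. Of the 10 with a ratio 7 were above 0 and 3 below, with a median of 0.27, beside -0.02 over all. Igf1 was level on both probe sets, at 945 in knockout against 931 in wild type on 95545_at and 249 against 256 on 95546_g_at. Igf1r read 475 in knockout against 295 in wild type, a log2 ratio of 0.68. This is beyond the probe set standard deviation of 0.25, which was taken from brighter probe sets. Igfbp6 was 1.44-fold higher at 1122 in knockout against 779 in wild type. Igfbp7 read 972 in knockout against 768 in wild type, and Igfbp2 552 against 689. Igfbp3 was above the floor only in knockout, at 186 and 122 against 96.7 and 92.1 in wild type, at least 1.86-fold and 1.23-fold higher. Igfbp4 differed little in testis, at 544 in knockout against 560 in wild type on 94222_at and 233 against 197 on 101571_g_at. Its remaining probe set and the 1 for Insr were below the floor on both arrays, and no testis probe set named Igfbp5 alone. Fibroblast markers summed to 6269 in knockout against 4054 in wild type, with 2 of the 6 that had a ratio at least 2-fold higher, and Sertoli markers to 16572 against 13041, with none of 12 past 2-fold. Macrophage markers summed to 5294 in knockout against 4084 in wild type, with 9 of 12 above 0. Among the germ cell markers, Dazl was 3.39-fold lower at 402 in knockout against 1364 in wild type, and Stra8 at least 2.86-fold lower at 37.1 against 286, while the list summed to 49521 against 48795. The part of these cells in the testis ratios was not tested. None of the 10 modulators, 11 receptors and adaptors, 16 PI3K to FOXO genes and 8 growth hormone genes with a ratio was called 2-fold apart, beside 0.532% higher and 0.852% lower among all genes.

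**Figure D4:**
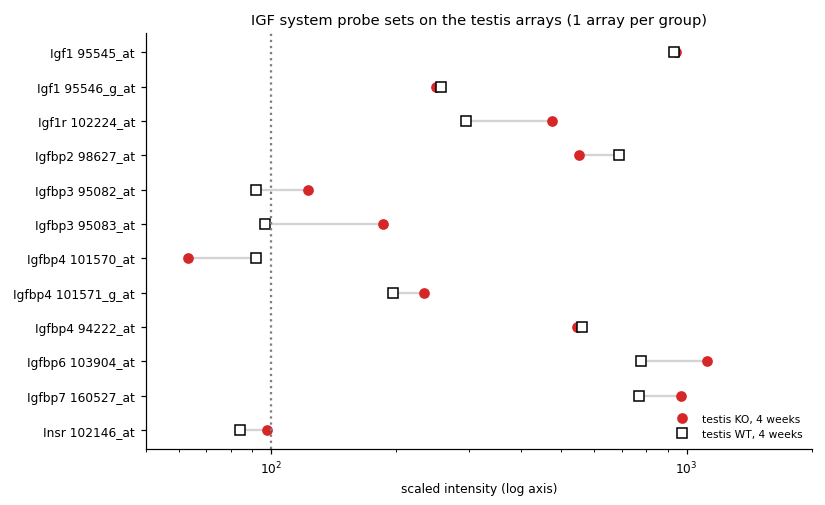
Scaled intensity (log axis) of each member probe set on the testis arrays, knockout (red circles) and wild type (open squares), 1 array each, with the floor of 100 dotted. The largest gaps are those of Igf1r, at 475 in knockout against 295 in wild type, and of the Igfbp3 probe set 95083_at, at 186 against 96.7.

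In TM4 cells, Etv5 itself was 1.13-fold, 1.17-fold and 1.51-fold higher with ERM than without on its 3 probe sets, none past 2-fold. Since the construct is not stated, these ratios do not settle how much ERM was added. Of 24 member probe sets, 1 was at least 2-fold lower with ERM and none higher, beside 0.466% lower and 0.281% higher of 29214. This was the Insr probe set 1450225_at, at 101 with ERM against 217 without, a call lost on the intensities as deposited and with the floor at 200. The other 2 Insr probe sets were level, at 391 with against 392 without ERM and at 322 against 302. The members' median was -0.03, beside 0.00 over all. Igfbp3 read 746 with ERM against 532 without on 1458268_s_at, and 103 against 108 on 1423062_at, close to the floor. Igfbp4 had log2 ratios of -0.25 to 0.48 over its 6 probe sets, and the 4 that were lower in knockout Sertoli cells lay between -0.25 and 0.20. Igf1 on 1452014_a_at read 432 with ERM against 440 without, Igfbp6 4374 against 4786, and Igfbp7 on 1423584_at 635 against 594. Igfbp5 was 1.29-fold higher, at 668 with ERM against 518 without. Igf1r on 1426565_at read 602 with ERM against 836 without, while 1428967_at read 311 against 195. None of the pathway list genes was called 2-fold apart, beside 0.303% higher and 0.421% lower among all genes.

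Wild-type Sertoli cells differed from untransfected TM4 cells at many genes, with 16.8% of 30846 probe sets at least 2-fold higher and 15.2% lower. Of 25 member probe sets 3 were higher and 4 lower. On the intensities as deposited, where the median of all probe sets moved to 0.57 from -0.07, 5 were higher and 1 lower. Igfbp3 on 1423062_at was 15.3-fold higher in Sertoli cells, at 1645 against 108 in TM4, but 2.10-fold on its other probe set. Igfbp7 went in opposite directions, at 2517 in Sertoli cells against 594 in TM4 on 1423584_at and 233 against 828 on 1437804_at. Igfbp6 was 2.05-fold lower at 2334 in Sertoli cells against 4786 in TM4, and Igf1 2.35-fold lower on 1452014_a_at, at 188 against 440. The other Igf1 probe sets were within 2-fold and of both signs, at log2 ratios of -0.34, 0.38 and 0.53. The Igf1 and Igfbp6 calls were lost on the deposited scale, with log2 ratios of -0.53 and -0.33. Pathway genes followed the wide difference, beside 17.8% higher and 16.1% lower among all genes. Of 15 modulators 2 were higher and 5 lower, of 14 receptors and adaptors 5 and 2, of 22 PI3K to FOXO genes 7 and 5, and of 8 growth hormone genes 2 and 2. Grb14, an adaptor that restrains the insulin receptor, was higher in Sertoli cells at 2218 against 202 in TM4, and Trib3, a pseudokinase that binds AKT, was 22.2-fold lower at 116 against 2584.

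Over the 5 arrays of this table, the order of levels could be read for each member's brightest probe set. Igfbp3 was lowest in TM4 and then higher at each step from wild-type Sertoli cells to knockout at 4 weeks and knockout at 10 weeks. Each of these steps exceeded the probe set spread, while both TM4 arrays lay within it. Igfbp7 was lowest in TM4, intermediate in knockout Sertoli cells at 4 weeks and highest in knockout at 10 weeks and wild type, which did not differ beyond the spread. Its probe set 1437804_at was instead highest in TM4, at 950 with and 828 without ERM, against 191 to 304 in Sertoli cells. For Igf1 the order was knockout at 4 weeks, then wild type and knockout at 10 weeks together, then both TM4 arrays together. Other Igf1 probe sets had other orders, as 1437401_at was lowest in TM4, at 115 with and 167 without ERM, and 1434413_at was lower in both TM4 arrays than in wild-type Sertoli cells. No step of the brightest Insr or Igfbp4 probe set exceeded the spread.

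The genes most like 3 members over these 5 arrays were sought among 13239 genes at or above the floor on all of them. The measure was the root mean square difference of centred log2 profiles. Members and genes were each taken by the brightest probe set alone. The closest to Igfbp7 was Pdgfra, a receptor gene of the fibroblast marker list, with a difference of 0.091. Pdgfra read 1567 in knockout at 4 weeks and 2972 in knockout at 10 weeks, against 2740 in wild type, and 770 and 760 in TM4 with and without ERM. The fibroblast list as a whole did not share this order. Of its 7 genes with a ratio, 3 were at least 2-fold higher in wild-type Sertoli cells than in untransfected TM4 and 3 lower. Among all genes 17.8% were higher and 16.1% lower. The lower ones were Col1a1 at 349 against 5974, Col1a2 at 877 against 11632 and Col3a1 at 953 against 5762. Rnf114 and Zfp800 followed for Igfbp7, at 0.15 and 0.16. Nearest to Igf1 were Slc25a24 (0.065), Macir (0.11) and Lao1 (0.12), and nearest to Igfbp3 were Tdrp (0.13), the collagen receptor gene Ddr1 (0.15) and Slc35g1 (0.17). With 5 arrays the likeness is a description only.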

How the data were processed

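Gene expression was measured on 7 arrays of mouse RNA, 1 per group, and groups were taken from the labels. The authors deposited 1 linear intensity per probe set and array, never below 1. Which software and scaling made them is not stated in the labels or files. Trimmed means as deposited were 183 and 186 in TM4, 288 to 299 in Sertoli cells, and 468 and 477 in testis. All values of an array were multiplied to bring the mean between its 2nd and 98th percentiles, control probe sets left out, to 500. The floor of 100 is 0.2 of that mean. Where 1 array lay below it the ratio is a bound, and where both did there is none.

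Probe sets were named through the platform annotation, with 10833 on the testis arrays and 34945 on the others naming exactly 1 gene. Gene identifiers of 10817 and 34741 of these matched a gene table of GRCm38.p6. The rule for named genes was all members, pathway genes at least 2-fold apart with the brighter array at 500 or above (up to 4 per list), and the 3 genes nearest in pattern to Igf1 and to members spanning at least 2 log2 units. Genes that complete a count of 5 or fewer and lie outside this rule, namely Htra3, Ccn4, Ccn3, Insrr, Sh2b1 and Trib3 in Sertoli knockout comparisons, were named after their values were seen. The members, lists and rules were chosen with earlier results of these data known. Precision is limited by having 1 array in each group. Alternatives were deposited values, median centring, quantile normalization, floors at 0.1 and 0.4 of the trimmed mean, and leaving out suffixed probe sets. The steps were tested on simulated data. Python 3.11.15, numpy 2.4.6, pandas 2.3.3 and matplotlib 3.10.9 were used.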

Additional observations from a re-analysis of the deposited data

Results flagged for a closer look

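For 2 members the knockout to wild-type ratio had opposite signs in whole testis and in Sertoli cells at 4 weeks, on the brightest probe set of each table and beyond the probe set spread in both. Igf1r had a log2 ratio of 0.68 in testis and of -0.52 in Sertoli cells. On the other 3 Sertoli probe sets of Igf1r with a ratio the values were 0.48, 0.37 and 0.10. Igfbp7 had 0.34 in testis and -1.05 in Sertoli cells, where its other probe sets gave -0.83 as a bound and 0.38. The tissues were measured on different array designs with 1 array per group, so the difference between them was not tested.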

How the results depend on the processing

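Of 72 counts of member probe sets past 2-fold under the alternatives, 60 stayed within 1.5 times the reported count, and no called log2 ratio reversed. The 60 include reported counts of 0 that stayed at 0, such as both in testis. Median centring, quantile normalization and a floor at 0.1 of the trimmed mean moved none of these counts by more. At a floor of 0.4 of it, 2 were lower in Sertoli knockout at 4 weeks and 1 at 10 weeks, none was higher between the knockout ages (0), and none was lower in TM4 with ERM (0). Without suffixed probe sets, which removes all of Igfbp4, 1 was lower in Sertoli knockout at 4 weeks, 0 were lower and 0 higher at 10 weeks, and 2 were lower in wild-type Sertoli cells than in TM4. On the values as deposited 2 were higher between the knockout ages, 0 were lower in TM4 with ERM, and 5 were higher and 1 lower in wild-type Sertoli cells than in TM4. A higher floor leaves a smaller range below the brighter array, and the suffix rule leaves fewer probe sets. The cause of the other shifts was not tested. Of 630 single log2 ratios recomputed, 579 moved by less than the probe set spread. No paired analysis was possible because each group has 1 array. Signals near the floor, such as those of Igf1 in Sertoli cells, limit what can be read from them.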

Other observations

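A testis probe set annotated to both Tmem119 and Igfbp5, 100566_at, was left out of the members by the rule. It read 285 in knockout testis against 174 in wild-type testis. Which of these genes gave the signal cannot be told from it.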
